A study of Homo sapiens with 42 samples.

Results

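The genes described here are 30 known transcriptional targets of the tumour suppressor p53, taken by symbol from a list that covers feedback on p53, cell cycle and growth control, DNA repair, death signalling and metabolism. Of the 34318 genes with a transcript in the data, 29 were on this list; SESN2 was not analysed here. The study asked how RNA levels respond when RNA polymerase III is impaired through its alternative subunits POLR3G and POLR3GL, its repressor MAF1 or the inhibitor ML-60218. Poly(A) RNA was sequenced in 42 libraries, 3 for each of 14 groups in 5 experiments.

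In HEK293T cells, an embryonic kidney line, a POLR3G antisense oligonucleotide (ASO) was set against a scramble ASO and a POLR3G siRNA against a control siRNA, each at 200 nM for 48 h. In the same line 3 POLR3GL siRNAs (siE4, siE6 and siE8) were set against a control siRNA at 25 nM for 48 h, and a MAF1 overexpression plasmid (MAF1 OE) against an eGFP plasmid (eGFP OE) after 48 h. In THP-1 cells, a monocytic leukaemia line, ML-60218 at 25 uM for 4 h was set against DMSO, and the translation inhibitor cycloheximide (CHX) at 10 ug/ml for 4.5 h against the same DMSO libraries. ML-60218 was also given for 4 h together with CHX and then set against CHX alone. Both are established lines, all HEK293T groups were transiently transfected, and the labels do not say that replicates came from separate cultures. The p-values below therefore measure only the spread between these libraries, which may be technical.

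p53 is a transcription factor that DNA damage and other stresses stabilise. Its targets arrest the cycle, repair DNA, adjust metabolism or promote apoptosis, and some of them (MDM2, MDM4, PPM1D and CCNG1) act back on p53 itself, with MDM2, the ubiquitin ligase that marks p53 for destruction, at the centre of the loop. HEK293T cells carry SV40 large T antigen, which binds p53 and blocks its activity, and THP-1 cells lack working p53, so that neither line is a standard model of p53 signalling.

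The sequences below show the stretch of the start-site region that most resembles a p53 response element without a spacer. They were searched because p53 acts on its targets through such elements. A p53 response element is a pair of 10-base half-sites that lie side by side or with a short spacer. The form searched here has no spacer, 20 bases in all, and reads the same on both strands. RefSeq start-site windows (GRCh38.p14, 250 bases before to 50 after the start) matched 25 of the 30 symbols, the others being RRM2B, TNFRSF10B, GADD45A, TP53INP1 and PHLDA3. A match with at most 2 mismatches to this spacer-free consensus was present in 4 of the 25 genes, against 224 of all 27305 genes with a window, or 0.82%. Elements with a spacer were not searched. The DDB2 line below also holds a closer pair with a spacer, which runs from its capitals into the flank after them. The matches are descriptions of these letters and not of binding. They are printed 5′ to 3′ on the gene's strand with the 20 matching bases in capitals and 20 flanking bases on each side. MDM2 lies at chr12:68808903-68808962 (plus strand, 2 mismatches), FAS at chr10:88991289-88991348 (plus strand, 2 mismatches), DDB2 at chr11:47214949-47215008 (plus strand, 1 mismatch) and AEN at chr15:88621286-88621345 (plus strand, 2 mismatches).
MDM2: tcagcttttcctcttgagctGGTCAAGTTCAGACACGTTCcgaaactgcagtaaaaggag
FAS: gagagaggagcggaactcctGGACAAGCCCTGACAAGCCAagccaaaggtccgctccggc
DDB2: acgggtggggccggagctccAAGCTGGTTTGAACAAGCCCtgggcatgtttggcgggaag
AEN: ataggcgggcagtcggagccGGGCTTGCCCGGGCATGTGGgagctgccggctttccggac

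Library size was 32705684 to 52568088 reads. All 7 THP-1 markers (CD14, CD33, ITGAM, SPI1, LYZ, CSF1R and PTPRC) were higher in every THP-1 library than in any HEK293T library, and all 7 HEK293T markers (GATA3, PAX2, LHX1, EYA1, EPCAM, KRT18 and KRT8) the reverse. CPM is the read count of a gene scaled to the library total, with that total adjusted by TMM normalisation within each experiment. POLR3G had 10.6, 6.72 and 8.38 CPM with the POLR3G ASO, against 28.4, 21.4 and 22.5 CPM with scramble ASO. It had 14.6, 12.0 and 16.9 CPM with the POLR3G siRNA, against 31.1, 41.5 and 30.6 CPM with control siRNA. POLR3GL had 2.43 to 3.37 CPM with siE4, 2.74 to 3.97 CPM with siE6 and 2.45 to 2.84 CPM with siE8, against 32.6 to 36.4 CPM with control siRNA, and MAF1 had 2905 to 3328 CPM with MAF1 OE, against 40.4 to 42.6 CPM with eGFP OE. The log2 fold changes of the targeted genes were -1.49 (ASO), -1.25 (POLR3G siRNA), -3.56 (siE4), -3.35 (siE6), -3.71 (siE8) and 6.22 (MAF1 OE), all called and without overlap. POLR3G was also lower with the POLR3GL siRNAs, by 0.85, 0.56 and 0.93 on the log2 scale with siE4, siE6 and siE8. The POLR3G siRNA libraries also had 9.06, 10.2 and 10.2 CPM of MAF1, against 49.7, 51.4 and 48.8 CPM in their controls. The part of MAF1 in the values of that siRNA was not tested.

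In control cells the targets were read on the TPM scale, a level corrected for transcript length, and their medians ran from 1.91 TPM for SERTAD1 to 314 TPM for CCNG1 in HEK293T. CCNG1, a cyclin that recruits a phosphatase to MDM2, was the highest in both lines, with a median of 200 TPM in 3 THP-1 DMSO libraries and the 314 TPM above in 12 HEK293T control libraries. RPS27L, a ribosomal protein S27 relative, was next in both, with 129 TPM in THP-1 and 97.5 TPM in HEK293T. MDM2 stood at 40.9 to 43.1 TPM in THP-1 and 38.8 to 60.6 TPM in HEK293T, and these ranges overlap. In TPM, 15 of the 29 genes were lower in all THP-1 libraries than in any HEK293T control, 5 were higher (RPS27L, SESN1, RRM2B, PLK3 and SERTAD1) and 9 overlapped, where 43.8% of the 18490 genes tested in any comparison were lower and 21.5% higher in this way. The differences were largest for TIGAR (0.728 to 1.49 TPM in THP-1 and 8.75 to 18.3 TPM in HEK293T), SPATA18 (0.223 to 0.424 TPM in THP-1 and 2.67 to 5.39 TPM in HEK293T) and FAS. FAS, the death receptor, was at 0 in 1 DMSO library and at 0.281 TPM in the median one, against 0.859 to 3.73 TPM in HEK293T. It had under 20 reads in 5 THP-1 libraries, so that its change in THP-1 was poorly measured at this depth. The FAS log2 fold changes of 1.08 with CHX and -0.82 with ML-60218 were not called. Line and experiment cannot be told apart here, and no test between the lines was run.

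**Figure D1:**
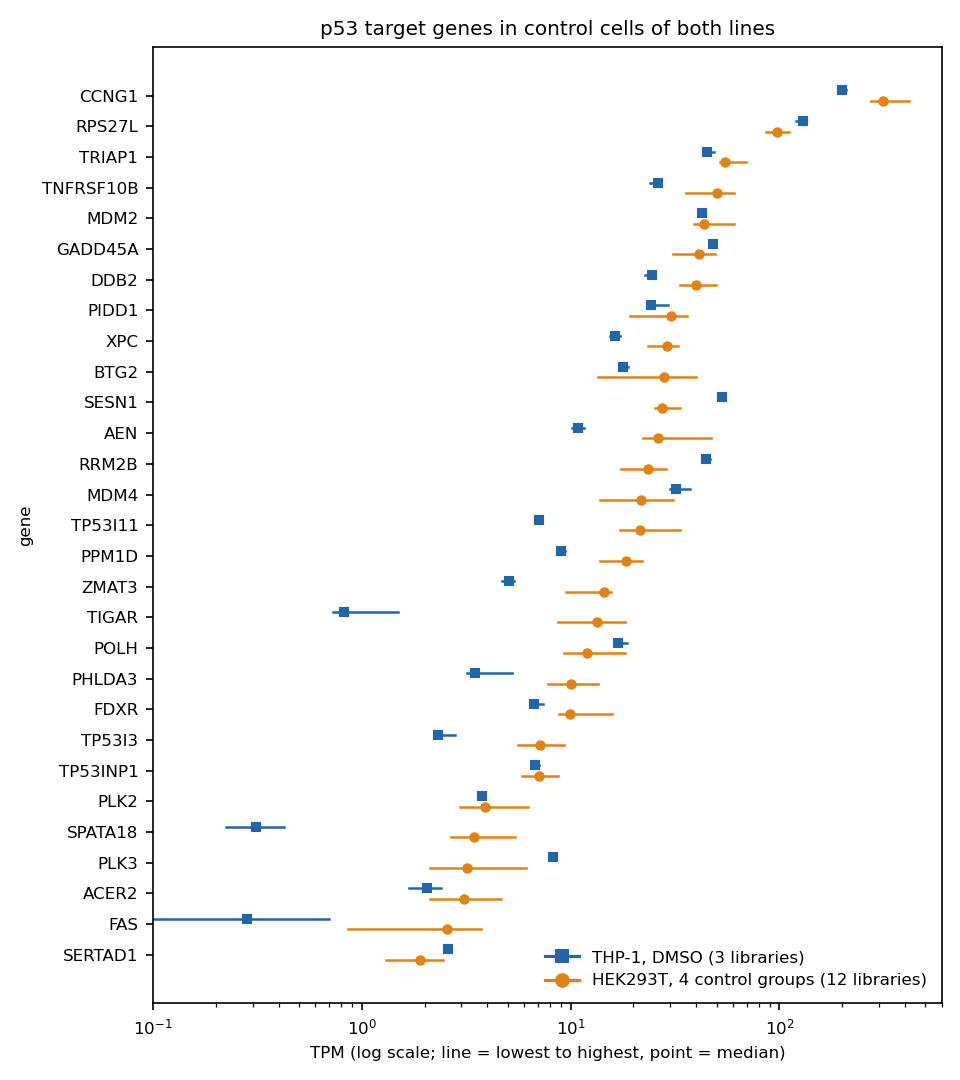
Level of each p53 target in TPM (log axis) in THP-1 cells with DMSO (squares, 3 libraries) and HEK293T cells with control treatment (circles, 12 libraries), as the median and the lowest to highest library. CCNG1 leads in both lines, and TIGAR, SPATA18 and FAS lie furthest to the left in THP-1 relative to HEK293T. The FAS library at 0 TPM is drawn at the left edge.

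With each of the 5 oligonucleotides in HEK293T cells most of the targets changed, and they changed in both directions. A target counts as changed at an adjusted p under 0.05 in edgeR's quasi-likelihood test, adjusted by Benjamini-Hochberg across every gene that was tested. With the POLR3G ASO 13 of 29 targets rose and 9 fell, where 68.5% of all genes passed (34.4% higher, 34.1% lower), and the targets' median log2 fold change was 0.066, beside -0.0033 over all genes. With the POLR3G siRNA 11 rose and 13 fell, where 74.9% of all genes passed (36.8% higher, 38.1% lower), with medians of -0.021 and -0.0204. Changes were this frequent across the whole transcriptome, so the direction and size of each gene carry the description below.

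siE4 raised 14 targets and lowered 9, where 54.9% of all genes passed (26.2% higher, 28.7% lower), with a median of 0.162 beside -0.0207 over all genes. siE6 raised 20 and lowered 4, where 63.0% of all genes passed (31.2% higher, 31.8% lower), with medians of 0.389 and -0.0018. siE8 raised 11 and lowered 8, where 57.7% of all genes passed (29.1% higher, 28.6% lower), with medians of 0.121 and -0.0090. The median size of change, whatever its sign, was 0.470 with siE6, 0.281 with siE4 and 0.312 with siE8, beside 0.351, 0.281 and 0.304 over all genes.

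PPM1D, the phosphatase WIP1 that dampens p53 signalling, and TIGAR, a fructose bisphosphatase that slows glycolysis, were the 2 targets that rose with all 5 oligonucleotides. The TIGAR calls with the ASO and siE4 were lost when each library's estimated transcript length was allowed for (adjusted p = 0.231 and 0.191, edgeR), and the PPM1D call with siE4 was lost when those 2 groups were compared alone (adjusted p = 0.0648, edgeR). These calls are on gene sums. By group mean, 54.2% to 71.0% of PPM1D reads lay on PPM1D-202, annotated as a target of nonsense-mediated decay. The protein-coding PPM1D-201 took 22.2%, 36.1% and 20.3% with the ASO, against 37.1%, 43.7% and 39.1% with scramble ASO. Its share lay above the controls with the POLR3G siRNA and overlapped them with siE4, siE6 and siE8. The shares were not tested. No target fell with all 5. AEN, an apoptosis-enhancing nuclease, RPS27L and TRIAP1, an inhibitor of apoptosis that carries lipids in mitochondria, rose with 4 and fell with none, while SPATA18, a mitochondrial quality control factor, fell with 4 and rose with none. Of the 29 targets, 17 were changed in both directions by different oligonucleotides and 12 in a single direction. Of the 15067 genes tested with all 5, 50.6% were changed in both directions, 46.3% in a single one and 3.11% by none, and 2.42% rose and 3.42% fell with all 5. Those shares were not split by the number of oligonucleotides below 5. A count such as 4 with none the other way is therefore a description without a background. siE4, siE6 and siE8 share their control libraries, so a high or low control value moves all 3 of their comparisons together.

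**Figure D2:**
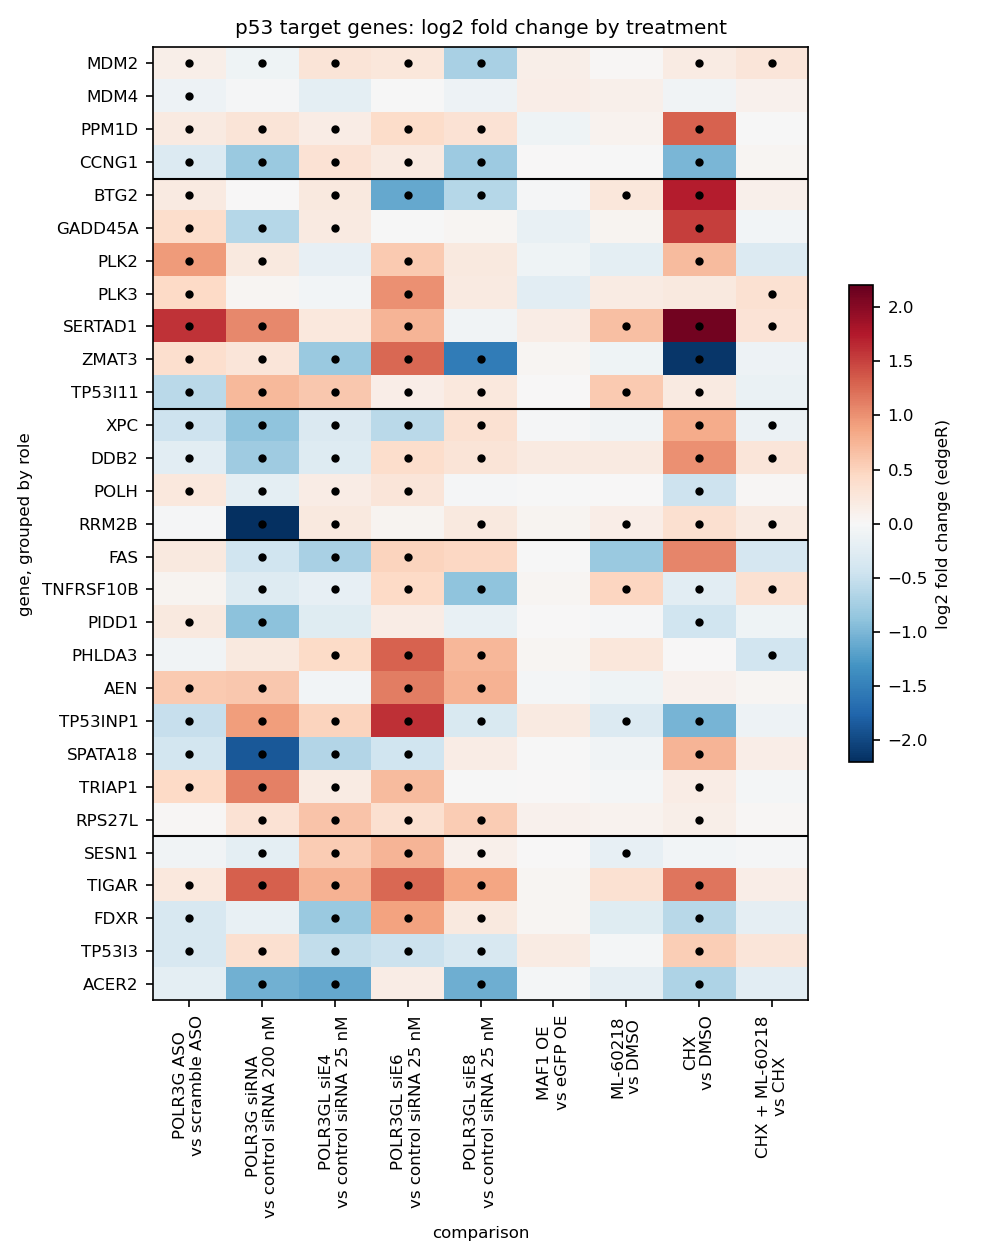
Log2 fold change of the 29 measured p53 targets (rows, grouped by role and set apart by lines) in 9 comparisons (columns), red for higher and blue for lower in the treated group. A black dot marks an adjusted p under 0.05. The MAF1 OE column has no dot, the 5 oligonucleotide columns and the CHX column have dots for most genes in both colours, and the ML-60218 columns have 7 and 8.

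MDM2 fell with siE8 and changed by at most 0.28 on the log2 scale with the other oligonucleotides. It had 111, 103 and 110 CPM with siE8, against 180, 167 and 190 CPM with control siRNA, a log2 fold change of -0.72 (SE 0.047, adjusted p = 2.77e-08, edgeR). All siE8 libraries lay below all control libraries. MDM2 had 216, 223 and 213 CPM with siE4 and 209, 214 and 215 CPM with siE6, both above the same controls, with log2 fold changes of 0.28 and 0.25 (adjusted p = 1.75e-04 and 3.62e-04, edgeR). It rose by 0.13 with the POLR3G ASO (248, 257 and 246 CPM, against 228, 229 and 229 CPM with scramble ASO) and fell by 0.095 with the POLR3G siRNA (183, 183 and 185 CPM, against 196, 196 and 196 CPM). The groups did not overlap in any of these 5 comparisons.

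CCNG1 followed the same signs as MDM2 with the POLR3GL siRNAs. It had 319, 319 and 323 CPM with siE8, against 518, 580 and 578 CPM with control siRNA (log2 fold change -0.80, SE 0.049, adjusted p = 1.78e-08, edgeR), and rose by 0.32 with siE4 and 0.19 with siE6. CCNG1 had 269, 272 and 269 CPM with the POLR3G siRNA, against 470, 470 and 482 CPM with its control (log2 fold change -0.81), and was 0.30 lower with the ASO. PPM1D rose by 0.16 to 0.41 on the log2 scale, with 48.0, 53.4 and 50.3 CPM with siE8, against 36.5, 41.2 and 44.5 CPM with control siRNA (log2 fold change 0.31). MDM4, the MDM2 partner that blocks the p53 transactivation domain, passed only with the ASO in the whole set of 9 treatments, at a log2 fold change of -0.12 (171, 169 and 157 CPM, against 185, 179 and 176 CPM with scramble ASO), a call lost when all HEK293T libraries shared a fit (adjusted p = 0.172, edgeR). Its value was -0.19 with the transcript length allowed for.

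Among the cell cycle and growth genes, ZMAT3, a zinc finger protein that regulates splicing, moved furthest apart between the POLR3GL siRNAs. It had 146, 159 and 155 CPM with siE6, 36.5, 36.8 and 35.8 CPM with siE4 and 23.5, 21.5 and 20.7 CPM with siE8, against 61.6, 59.8 and 69.2 CPM with control siRNA. Every siE6 library lay above, and every siE4 and siE8 library below, the controls. The log2 fold changes were 1.27 (SE 0.059) with siE6, -0.81 (SE 0.061) with siE4 and -1.54 (SE 0.064) with siE8, with adjusted p = 1.22e-09, 1.62e-07 and 4.04e-10 (edgeR). Both POLR3G agents raised ZMAT3, by 0.37 with the ASO and 0.27 with the siRNA.

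BTG2, an antiproliferative cofactor of mRNA deadenylation, had 30.7, 28.2 and 31.4 CPM with siE6 and 42.4, 44.7 and 39.9 CPM with siE8, against 62.0, 67.2 and 67.6 CPM with control siRNA. It fell by 1.13 and 0.63 on the log2 scale (adjusted p = 3.12e-09 and 7.08e-07, edgeR) without overlap, while siE4 raised it by 0.21. SERTAD1, a CDK4-binding coactivator, had 8.53, 8.01 and 9.94 CPM with the POLR3G ASO, against 2.46, 2.90 and 3.42 CPM with scramble ASO. That was the largest rise of any target with the ASO, at 1.59 on the log2 scale (SE 0.14, adjusted p = 9.67e-06, edgeR). SERTAD1 also rose with the POLR3G siRNA (5.63, 4.64 and 5.0 CPM, against 2.46, 2.61 and 2.26 CPM, log2 fold change 1.06) and with siE6 (log2 fold change 0.75).

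The polo-like kinases PLK2 and PLK3, which take part in stress responses, rose with 3 (PLK2) and 2 (PLK3) of the 5 oligonucleotides and fell with none. The PLK2 rise with the POLR3G siRNA, 0.22, turned to -0.07 with the transcript length allowed for and was not called by DESeq2 (adjusted p = 0.104). PLK2 had 12.1, 11.5 and 13.0 CPM with the ASO, against 6.66, 5.88 and 6.52 CPM with scramble ASO (log2 fold change 0.94, adjusted p = 1.16e-05, edgeR), and PLK3 had 3.86, 4.38 and 3.55 CPM with siE6, against 2.12, 1.79 and 1.96 CPM with control siRNA (log2 fold change 1.00, adjusted p = 2.17e-05, edgeR). Neither pair of groups overlapped. PLK3 rose by 0.43 with the ASO (3.67, 3.67 and 3.42 CPM, against 2.97, 2.33 and 2.68 CPM), a call lost without scramble ASO library 2 (log2 fold change 0.34, adjusted p = 0.050, edgeR). GADD45A, which binds PCNA and slows the cycle after damage, rose by 0.38 with the ASO (31.2, 30.5 and 28.4 CPM, against 22.8, 23.1 and 23.3 CPM) and fell by 0.63 with the POLR3G siRNA (19.7, 17.5 and 18.1 CPM, against 27.4, 28.6 and 29.5 CPM). TP53I11 also went opposite ways. It had 26.7, 25.1 and 23.1 CPM with the ASO, against 38.8, 37.4 and 37.6 CPM with scramble ASO, and 39.9, 36.0 and 37.6 CPM with the POLR3G siRNA, against 23.6, 22.8 and 22.8 CPM with its control. Its log2 fold changes were -0.60 and 0.71, and it rose by 0.60 with siE4 (41.3, 37.6 and 41.1 CPM, against 25.4, 26.3 and 27.2 CPM).

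**Figure D3:**
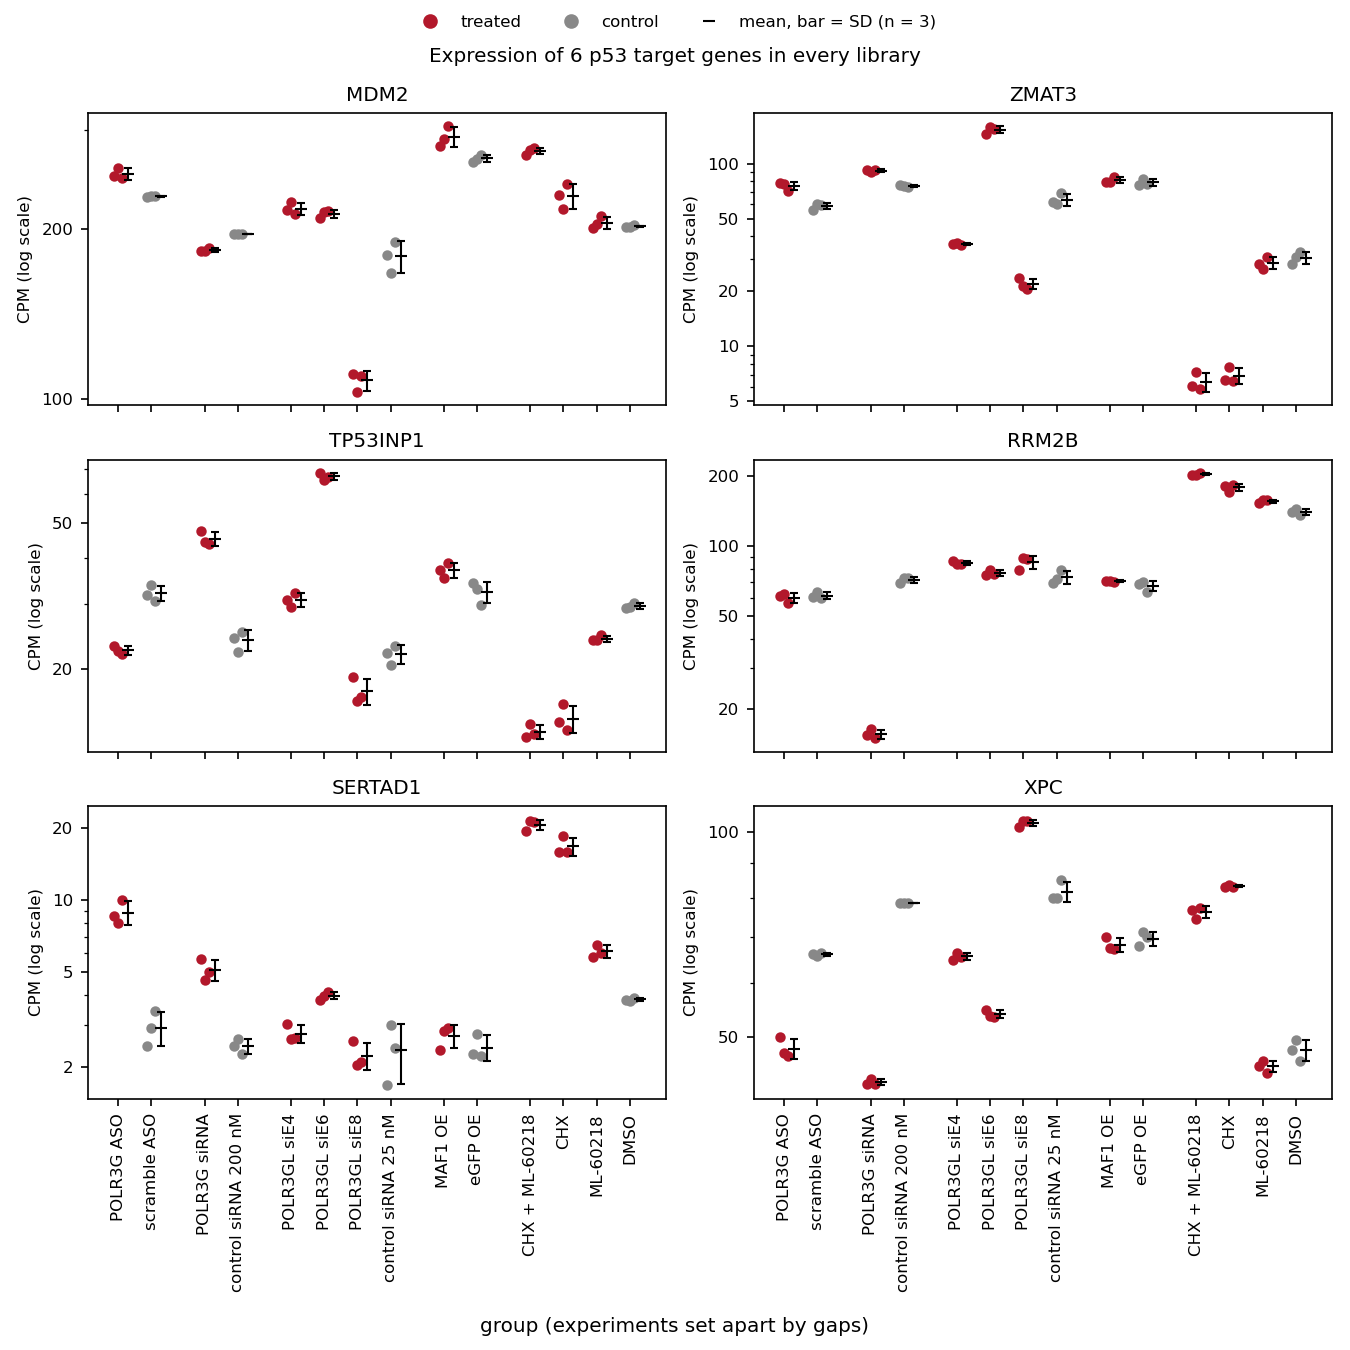
CPM (log axis) of MDM2, ZMAT3, TP53INP1, RRM2B, SERTAD1 and XPC in every library by group, with the mean and SD of 3 libraries beside the points and each treated group left of its control. ZMAT3 lies above its controls with siE6 and below them with siE4, siE8 and CHX, RRM2B is low with the POLR3G siRNA alone, and SERTAD1 is highest with CHX and with CHX + ML-60218.

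Of the repair genes, RRM2B, the ribonucleotide reductase subunit that supplies nucleotides for repair, gave the largest change of any target in HEK293T cells. It had 15.5, 16.4 and 15.0 CPM with the POLR3G siRNA, against 69.6, 73.2 and 73.0 CPM with control siRNA, a log2 fold change of -2.20 (SE 0.040, adjusted p = 5.99e-10, edgeR). With the POLR3G ASO it had 61.2, 62.6 and 57.0 CPM, against 60.7, 63.7 and 59.8 CPM with scramble ASO, groups that overlap (log2 fold change -0.025, adjusted p = 0.601, edgeR). The low level occurred with the siRNA and not with the ASO. Agent and experiment cannot be told apart here, and the part of POLR3G was not tested. All 4 repair genes fell with the POLR3G siRNA, where 38.1% of all genes were lower, the others being XPC, DDB2 and POLH. The POLH fall of 0.22 was not called with the transcript length allowed for (log2 fold change -0.05, adjusted p = 0.726, edgeR).

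XPC, the damage sensor of nucleotide excision repair, fell with 4 of the 5 oligonucleotides. It had 42.5, 43.3 and 42.6 CPM with the POLR3G siRNA, against 78.6 CPM in all 3 controls (log2 fold change -0.88, adjusted p = 3.34e-09, edgeR), and 49.9, 47.3 and 46.8 CPM with the ASO, against 66.1, 65.8 and 66.4 CPM (log2 fold change -0.46). With the POLR3GL siRNAs it had 54.8, 53.6 and 53.4 CPM with siE6, 64.9, 66.4 and 65.6 CPM with siE4 and 102, 104 and 104 CPM with siE8, against 80.0, 80.1 and 85.0 CPM with control siRNA. Its log2 fold changes there were -0.60, -0.32 and 0.34, so siE8 was the exception in sign. DDB2, which recognises UV lesions with XPC, fell by 0.79 with the POLR3G siRNA, 0.24 with the ASO and 0.28 with siE4, and rose by 0.39 with siE6 and 0.29 with siE8. Its falls with the ASO and siE4 were not called with the transcript length allowed for (log2 fold changes -0.02 and -0.04).

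The death signalling and survival genes held the largest rise with siE6. TP53INP1, a nuclear protein that promotes p53 phosphorylation and autophagy, had 68.4, 65.5 and 66.8 CPM with siE6 and 30.9, 29.4 and 32.1 CPM with siE4, against 22.1, 20.5 and 23.1 CPM with control siRNA. The log2 fold changes were 1.61 (SE 0.061, adjusted p = 2.27e-10, edgeR) and 0.49, with no overlap. It fell by 0.33 with siE8. TP53INP1 rose with the POLR3G siRNA (47.5, 44.2 and 43.8 CPM, against 24.3, 22.2 and 25.2 CPM, log2 fold change 0.92) and fell with the ASO (23.1, 22.4 and 21.9 CPM, against 31.8, 33.8 and 30.7 CPM, log2 fold change -0.51).

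AEN had 111, 118 and 112 CPM with siE6 and 83.2, 94.4 and 88.0 CPM with siE8, against 50.6, 54.3 and 51.5 CPM with control siRNA, log2 fold changes of 1.13 and 0.76 (adjusted p = 1.13e-09 and 4.31e-08, edgeR). It also rose with the ASO (85.1, 84.9 and 89.9 CPM, against 59.3, 56.2 and 59.9 CPM, log2 fold change 0.57) and the POLR3G siRNA (66.8, 69.8 and 70.3 CPM, against 44.2, 44.7 and 47.5 CPM, log2 fold change 0.60). With siE4 the AEN libraries overlapped the controls (log2 fold change -0.063, adjusted p = 0.338, edgeR). PHLDA3, which competes with AKT for membrane lipids, rose with all 3 POLR3GL siRNAs. It had 12.3, 10.1 and 9.63 CPM with siE4, 18.7, 20.1 and 19.8 CPM with siE6 and 12.1, 14.8 and 12.7 CPM with siE8, against 7.28, 8.41 and 8.24 CPM with control siRNA, with log2 fold changes of 0.42, 1.29 and 0.73. With the POLR3G agents PHLDA3 did not pass (log2 fold changes -0.084 and 0.21). RPS27L likewise rose with all 3, by 0.63 with siE4 (58.0, 57.0 and 55.0 CPM, against 37.1, 33.9 and 38.6 CPM), 0.36 with siE6 and 0.55 with siE8 (50.6, 54.8 and 55.2 CPM).

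TNFRSF10B, the TRAIL receptor DR5, had 77.3, 72.8 and 78.5 CPM with siE8, against 142, 139 and 138 CPM with control siRNA (log2 fold change -0.88, adjusted p = 1.43e-09, edgeR), and rose by 0.44 with siE6. TRIAP1 had 77.1, 77.7 and 74.5 CPM with the POLR3G siRNA, against 36.4, 35.7 and 35.1 CPM (log2 fold change 1.10), and 58.1, 57.8 and 59.0 CPM with the ASO, against 42.4, 43.1 and 43.6 CPM (log2 fold change 0.44). SPATA18 had 1.92, 2.06 and 1.85 CPM with the POLR3G siRNA, against 6.48, 7.29 and 7.45 CPM, the second largest fall with that siRNA at -1.86 on the log2 scale (SE 0.10, adjusted p = 2.49e-07, edgeR). SPATA18 fell by 0.41 with the ASO (5.01, 5.24 and 5.44 CPM, against 7.44, 6.27 and 7.08 CPM), 0.65 with siE4 and 0.43 with siE6, and the ASO value was -0.69 with the transcript length allowed for. PIDD1, a scaffold for caspase-2, fell by 0.91 with the POLR3G siRNA (14.8, 13.4 and 13.3 CPM, against 26.8, 24.8 and 26.5 CPM) and rose by 0.21 with the ASO, a call lost when all HEK293T libraries shared a fit (adjusted p = 0.0515, edgeR). With the transcript length allowed for, PIDD1 stood at -0.42 with the siRNA and 0.81 with the ASO (adjusted p = 0.00394 and 1.75e-05, edgeR). FAS had 4.85, 3.47 and 2.33 CPM with siE4, against 6.69, 5.14 and 5.58 CPM with control siRNA (log2 fold change -0.72, adjusted p = 0.0101, edgeR). The 4 genes with a start-site match printed above did not always move together. With siE8, AEN and DDB2 rose by 0.76 and 0.29, MDM2 fell by 0.72, and FAS did not pass (log2 fold change 0.46, adjusted p = 0.0642, edgeR). With siE6 all 4 rose, where 20 of the 29 targets and 31.2% of all genes were higher. FAS rose by 0.49 there (adjusted p = 0.0477, edgeR). That FAS call was lost when all HEK293T libraries shared a fit (adjusted p = 0.115, edgeR).

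Of the metabolic genes, TIGAR had 93.7, 95.5 and 88.9 CPM with the POLR3G siRNA, against 37.4, 36.0 and 38.4 CPM (log2 fold change 1.31, SE 0.037, adjusted p = 4.59e-09, edgeR). With the POLR3GL siRNAs it had 52.3, 48.4 and 47.1 CPM (siE4), 68.8, 74.6 and 66.3 CPM (siE6) and 51.3, 53.7 and 52.9 CPM (siE8), against 27.9, 26.3 and 33 CPM with control siRNA. The rises were 0.76, 1.27 and 0.86 on the log2 scale, and no groups overlapped. With the transcript length allowed for, the siE4 change was 0.23 and not called, while the rises with siE6 (0.88), siE8 (0.54) and the POLR3G siRNA (0.81) still passed.

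SESN1, a sestrin that restrains mTORC1, had 72.3, 71.1 and 65.0 CPM with siE4 and 79.4, 78.8 and 78.6 CPM with siE6, against 46.0, 48.5 and 47.5 CPM with control siRNA (log2 fold changes 0.55 and 0.74), and rose by 0.12 with siE8, a call lost with the transcript length allowed for (adjusted p = 0.176, edgeR). FDXR, the mitochondrial ferredoxin reductase, had 6.0, 6.77 and 6.46 CPM with siE4 but 20.8, 21.0 and 20.8 CPM with siE6, against 11.5, 11.4 and 11.2 CPM, for log2 fold changes of -0.82 and 0.88 (adjusted p = 9.95e-08 and 2.21e-08, edgeR). It fell by 0.35 with the ASO (8.50, 8.69 and 8.64 CPM, against 11.7, 10.8 and 10.5 CPM). ACER2, an alkaline ceramidase, had 2.86, 3.17 and 3.17 CPM with siE4, 3.49, 2.82 and 3.22 CPM with siE8 and 3.39, 3.11 and 4.36 CPM with the POLR3G siRNA. Its controls had 6.86, 6.80 and 6.45 CPM at 25 nM and 6.93, 7.33 and 8.11 CPM at 200 nM, and it fell by 1.13, 1.08 and 1.05 on the log2 scale. TP53I3, a quinone oxidoreductase, fell with the ASO and all 3 POLR3GL siRNAs, by 0.36, 0.55 (siE4), 0.47 (siE6) and 0.36 (siE8), and rose by 0.36 with the POLR3G siRNA. Its fall with the ASO (5.44, 5.15 and 4.43 CPM, against 5.94, 6.30 and 7.05 CPM) did not pass without ASO library 3 or without scramble ASO library 3 (adjusted p = 0.0592 and 0.0650, edgeR), and with the length allowed for neither this fall nor that with siE6 passed (adjusted p = 0.114 and 0.0772, edgeR). The fall with siE8 was not called without the filter on low counts (adjusted p = 0.0606, edgeR) and was -0.54 with the length allowed for.

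The POLR3GL siRNAs siE4 and siE6 were also each set against siE8, since all 3 lowered the same gene. Between siE6 and siE8, 17 of 29 targets were higher and 5 lower with siE6, where 64.2% of all genes passed (32.1% in each direction), and the targets' median difference was 0.357 on the log2 scale, beside 0.0045 over all genes. ZMAT3 differed by 2.81 (SE 0.064, adjusted p = 3.06e-12, edgeR), TP53INP1 by 1.94, TNFRSF10B by 1.32 and MDM2 by 0.97, all higher with siE6, and XPC (-0.94), SPATA18 (-0.61) and BTG2 (-0.49) were lower with siE6. Between siE4 and siE8, 11 were higher and 8 lower with siE4, where 63.0% of all genes passed (30.5% higher, 32.4% lower), with a median of -0.050. CCNG1 (1.13), MDM2 (1.00) and BTG2 (0.84) were higher with siE4, and FAS (-1.18), FDXR (-1.03) and SPATA18 (-0.83) were lower. POLR3GL itself did not pass between siE4 and siE8 (log2 difference 0.14, adjusted p = 0.409, edgeR) and was 0.36 higher with siE6 than with siE8. Of the 29 targets, 22 (75.9%) differed between siE6 and siE8, where 64.2% of all genes passed. Between siE4 and siE8, 19 (65.5%) differed, where 63.0% of all genes passed.

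**Figure D4:**
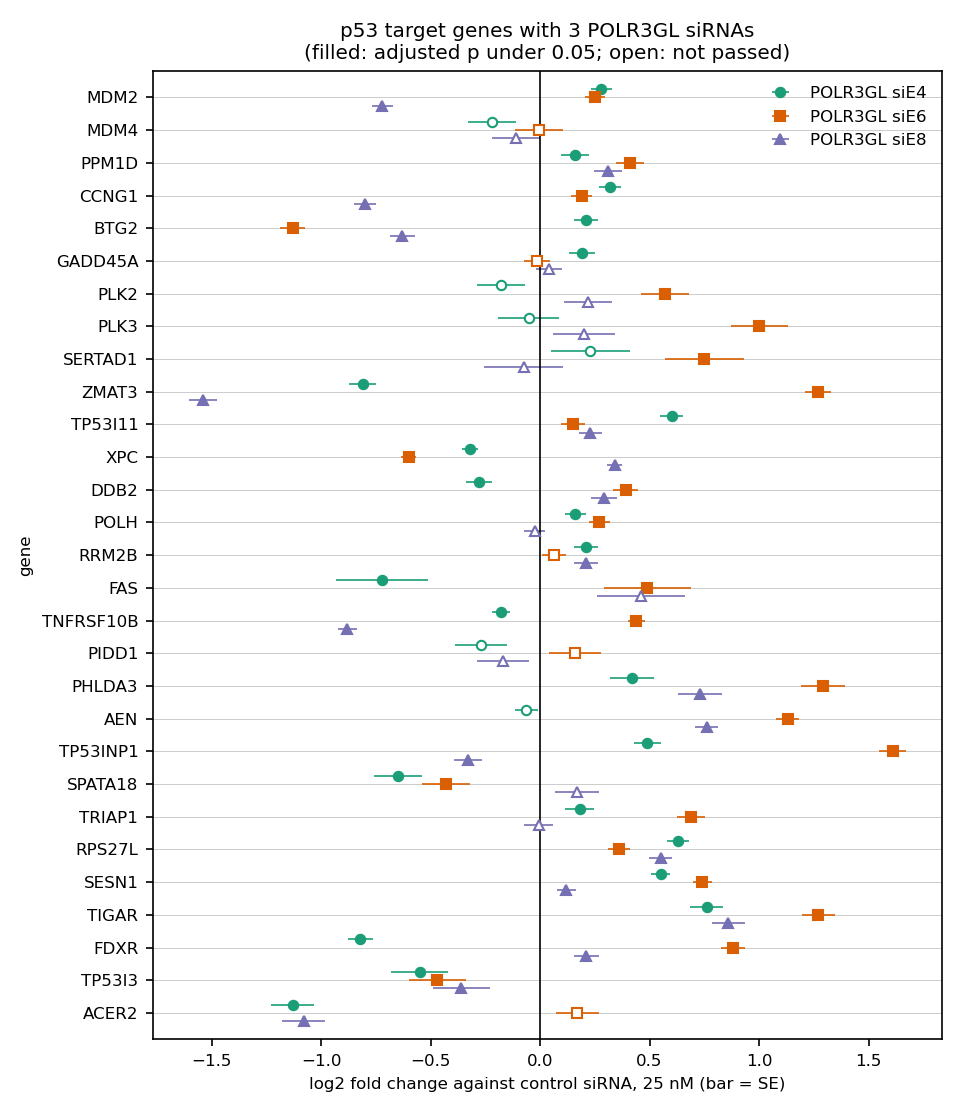
Log2 fold change (x axis, with SE) of each p53 target with siE4 (circles), siE6 (squares) and siE8 (triangles) against the shared control siRNA libraries at 25 nM. Filled symbols passed at an adjusted p under 0.05. ZMAT3 runs from -1.54 with siE8 to 1.27 with siE6, and TIGAR, PHLDA3, RPS27L and PPM1D lie right of 0 with all 3.

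The POLR3G ASO and the POLR3G siRNA were compared through the difference of their effects, each against its own control. The 29 targets held 14 with a higher and 8 with a lower effect of the ASO, where 66.8% of all genes passed (33.8% higher, 33.0% lower), and their median difference was 0.193 beside 0.0769 over all genes. The effect of the ASO was higher for RRM2B by 2.15 (SE 0.062, adjusted p = 9.88e-12, edgeR), SPATA18 by 1.43, PIDD1 by 1.09 and MDM2 by 0.19. It was lower for TP53INP1 (-1.46), TP53I11 (-1.34) and TIGAR (-1.11). With the transcript length allowed for, the SPATA18 difference was 0.83 and the TIGAR difference -0.69 (adjusted p = 0.0166 and 6.92e-04, edgeR). The difference in effect on POLR3G did not pass (log2 difference -0.27, adjusted p = 0.356, edgeR), while that on MAF1 was 2.30. Agent and experiment cannot be told apart in this difference.

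MAF1 overexpression changed none of the 29 targets by edgeR's quasi-likelihood test, where 6 of 15543 genes, or 0.0386%, passed (0.0322% higher, 0.00643% lower). At an unadjusted p under 0.05 in edgeR, 7 of the 29 targets and 1493 of the 15543 genes (9.61%) passed. By DESeq2 5 of the 29 targets and 3.40% of its 23753 genes passed that unadjusted threshold. After adjustment DESeq2 called 0 targets and 31 genes. MDM2 had 280, 289 and 304 CPM with MAF1 OE, against 263, 266 and 271 CPM with eGFP OE, groups that do not overlap (log2 fold change 0.13, SE 0.033, adjusted p = 0.409, edgeR). The other 28 targets lay between -0.24 and 0.20 on the log2 scale. RRM2B, low where the POLR3G siRNA was given, had 71.2, 71.2 and 70.3 CPM with MAF1 OE, against 69.0, 70.0 and 63.9 CPM with eGFP OE.

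In THP-1 cells ML-60218 alone raised 5 of 29 targets and lowered 2, where 15.5% of all genes passed (8.48% higher, 7.05% lower), and the median was 0.016 on the log2 scale. SERTAD1 had 5.76, 6.48 and 6.0 CPM with ML-60218, against 3.83, 3.79 and 3.88 CPM with DMSO (log2 fold change 0.67, SE 0.081, adjusted p = 2.00e-04, edgeR). TP53I11 had 18.3, 21.0 and 19.6 CPM, against 13.1, 13.1 and 13.0 CPM (log2 fold change 0.58, adjusted p = 1.37e-04, edgeR), and TNFRSF10B had 93.4, 99.3 and 88.1 CPM, against 65.9, 69.0 and 68.3 CPM (log2 fold change 0.47, adjusted p = 5.09e-05, edgeR). These 3 genes were higher in every ML-60218 library than in any DMSO library. BTG2 rose by 0.25 (42.5, 44.5 and 43.6 CPM, against 35.7, 37.8 and 36.2 CPM) and RRM2B by 0.15 (154, 158 and 158 CPM, against 140, 145 and 137 CPM). TP53INP1 fell by 0.30 (23.9, 23.9 and 24.7 CPM, against 29.3, 29.4 and 30.3 CPM) and SESN1 by 0.18 (86.2, 84.7 and 87.9 CPM, against 97.4, 97.2 and 98.9 CPM). MDM2 had 201, 204 and 211 CPM with ML-60218, against 202, 202 and 203 CPM with DMSO, and these overlap (log2 fold change 0.024, adjusted p = 0.705, edgeR).

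CHX alone gave larger changes in THP-1 cells than ML-60218. Over the targets the median size was 0.609 on the log2 scale with CHX, beside 0.154 with ML-60218. Over all genes it was 0.381 with CHX and 0.105 with ML-60218. CHX raised 15 of 29 targets and lowered 8, where 66.0% of all genes passed (33.5% higher, 32.5% lower), with a median of 0.182. It gave both the largest rise and the second largest fall of any target in the 9 treatments. Of the feedback genes, PPM1D had 57.7, 62.4 and 60.0 CPM with CHX, against 25.3, 24.3 and 24.0 CPM with DMSO (log2 fold change 1.29), while CCNG1 had 170, 159 and 164 CPM, against 334, 341 and 319 CPM (log2 fold change -1.01). MDM2 rose by 0.18 (230, 217 and 240 CPM, against 202, 202 and 203 CPM).

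The growth control genes moved most. SERTAD1 had 15.8, 18.4 and 15.8 CPM with CHX, against 3.83, 3.79 and 3.88 CPM with DMSO (log2 fold change 2.12, SE 0.079, adjusted p = 1.15e-10, edgeR), and BTG2 had 126, 111 and 126 CPM, against 35.7, 37.8 and 36.2 CPM (log2 fold change 1.72, adjusted p = 2.34e-11, edgeR). GADD45A had 108, 103 and 102 CPM, against 35.4, 37.4 and 35.8 CPM (log2 fold change 1.52, adjusted p = 1.49e-12, edgeR). ZMAT3 went the other way, with 6.55, 7.75 and 6.44 CPM with CHX, against 28.2, 30.7 and 32.8 CPM with DMSO (log2 fold change -2.14, SE 0.098, adjusted p = 7.13e-10, edgeR). None of these groups overlapped.

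In the other roles, DDB2 rose with CHX (48.2, 48.5 and 45.9 CPM, against 24.3, 23.4 and 23.4 CPM with DMSO, log2 fold change 1.01) and POLH, the translesion polymerase eta, fell (68.9, 76.9 and 67.5 CPM, against 96.9, 98.7 and 95.6 CPM, log2 fold change -0.45). TP53INP1 had 14.3, 16.0 and 13.6 CPM with CHX, against 29.3, 29.4 and 30.3 CPM with DMSO (log2 fold change -1.02). TIGAR rose by 1.18 from a low level (5.09, 8.90 and 7.00 CPM with CHX, against 2.76, 3.13 and 3.37 CPM with DMSO). FDXR (5.29, 5.22 and 6.03 CPM, against 8.83, 8.31 and 8.07 CPM) and ACER2 (2.74, 2.43 and 2.69 CPM, against 3.48, 4.94 and 4.19 CPM) fell by 0.61 and 0.68. The other 8 targets that rose with CHX did so by 0.13 to 0.81 on the log2 scale.

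With CHX present, ML-60218 raised 6 targets and lowered 2, where 16.5% of all genes passed (8.75% higher, 7.75% lower), with a median of 0.025. MDM2 had 271, 276 and 278 CPM with CHX + ML-60218, against 230, 217 and 240 CPM with CHX (log2 fold change 0.26, SE 0.033, adjusted p = 2.29e-04, edgeR), without overlap. TNFRSF10B rose by 0.33 (72.1, 70.6 and 74.7 CPM, against 57.0, 54.8 and 60.9 CPM with CHX), DDB2 by 0.27 (54.0, 63.7 and 53.9 CPM, against 48.2, 48.5 and 45.9 CPM) and RRM2B by 0.19 (203, 203 and 207 CPM, against 182, 172 and 184 CPM). SERTAD1 rose by 0.30 (19.4, 21.3 and 21.0 CPM, against 15.8, 18.4 and 15.8 CPM) and PLK3 by 0.34 (8.80, 11.0 and 10.3 CPM, against 7.66, 8.09 and 7.92 CPM). XPC fell by 0.13 (76.8, 74.6 and 77.5 CPM, against 83.2, 83.8 and 83.2 CPM) and PHLDA3 by 0.42 (3.08, 2.45 and 2.73 CPM, against 3.86, 3.71 and 3.47 CPM). The calls on PLK3, PHLDA3 and SERTAD1 were lost without CHX library 1 (adjusted p = 0.0723, 0.0852 and 0.0509, edgeR). PLK3 also lost its call without CHX library 3, and PHLDA3 without CHX library 2, while both did without CHX + ML-60218 library 2 or 3 (adjusted p from 0.0538 to 0.0901, edgeR). With the transcript length allowed for, the XPC and PLK3 calls were lost (adjusted p = 0.191 and 0.0862, edgeR), and the PHLDA3 value was -0.78 (adjusted p = 0.0194, edgeR). DESeq2 did not call PHLDA3 (adjusted p = 0.0512).

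The effect of ML-60218 with CHX differed from its effect without CHX for 3 targets, 1 higher and 2 lower, where 6.56% of all genes passed (2.86% higher, 3.70% lower). MDM2 had a log2 fold change of 0.26 with CHX and 0.024 without (difference 0.24, SE 0.047, adjusted p = 0.0113, edgeR). TP53I11 had -0.14 with CHX and 0.58 without (difference -0.72, adjusted p = 0.00158, edgeR), and PHLDA3 had -0.42 with CHX and 0.25 without (difference -0.67, adjusted p = 0.0219, edgeR). The other 26 targets had differences of -0.36 to 0.45 that did not pass, among them SERTAD1, TNFRSF10B and RRM2B, which ML-60218 raised both with and without CHX. The PHLDA3 difference was lost without any of 6 libraries (CHX library 1, CHX + ML-60218 library 2 or 3, DMSO library 1 or 2, ML-60218 library 2), with adjusted p from 0.0520 to 0.0622 (edgeR), and was -1.10 with the transcript length allowed for (adjusted p = 0.0439, edgeR). The MDM2 difference was lost with the transcript length allowed for (log2 difference 0.16, adjusted p = 0.178, edgeR).

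The genes upstream of these targets were described as a list of 19 p53 regulators, 18 of them tested. Of the 18 regulators, 5 rose and 8 fell with the ASO, 10 rose and 3 fell with the POLR3G siRNA, 13 rose and 0 fell with siE4, 11 rose and 1 fell with siE6, 7 rose and 3 fell with siE8, and 7 rose and 8 fell with CHX. The changed regulators made up 72.2% with the ASO, where 68.5% of all genes passed, 72.2% with the POLR3G siRNA (74.9% of all genes), 72.2% with siE4 (54.9%), 66.7% with siE6 (63.0%), 55.6% with siE8 (57.7%) and 83.3% with CHX (66.0%). ML-60218 raised 2 and lowered 1 without CHX (16.7%, where 15.5% of all genes passed) and raised 3 and lowered 1 with it (22.2%, where 16.5% passed). USP7, the deubiquitinase of MDM2 and p53, rose by 0.97 with the POLR3G siRNA and fell by 0.82 with CHX.

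A second list of 28 known p53 targets outside the 30 gave counts in both directions as well. With siE6 13 of 26 tested rose and 6 fell, with siE4 14 rose and 4 fell, with siE8 10 rose and 9 fell, with the ASO 6 rose and 10 fell, and with the POLR3G siRNA, of 24 tested, 8 rose and 11 fell. That is 73.1% changed with siE6, where 63.0% of all genes passed, 69.2% with siE4 (54.9% of all genes), 73.1% with siE8 (57.7%), 61.5% with the ASO (68.5%) and 79.2% with the POLR3G siRNA (74.9%). CDKN1A, the cyclin-dependent kinase inhibitor p21, had 89.8, 88.7 and 94.4 CPM with siE6, 58.2, 56.0 and 56.1 CPM with siE4 and 48.0, 54.3 and 48.9 CPM with siE8, against 32.7, 37.7 and 35.2 CPM with control siRNA. It rose by 1.37, 0.69 and 0.52 on the log2 scale (adjusted p = 5.67e-10, 4.75e-07 and 5.84e-06, edgeR) with no overlap. CDKN1A fell by 0.39 with the POLR3G siRNA, did not pass with the ASO (log2 fold change -0.14, adjusted p = 0.0701, edgeR), and rose by 0.67 with CHX, 0.38 with ML-60218 and 0.36 with ML-60218 in the presence of CHX. In THP-1, of 24 tested, ML-60218 raised 3 and lowered 3 (25.0%, where 15.5% of all genes passed) and CHX raised 9 and lowered 10 (79.2%, where 66.0% passed).

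MDM4 passed the gene-level test with the ASO alone, but its reads divided differently between its 2 main transcripts. MDM4-203 holds exon 6 and encodes 490 codons, and MDM4-205 lacks it and ends after 140 codons, so that exon 6 separates the full-length reading frame from a short one. The exon is 68 bases at chr1:204537430-204537497 (hg38, plus strand, GENCODE release 29), coding sequence of MDM4-203, and is printed in capitals with 10 bases of the neighbouring exons on each side to show what the transcripts differ by.
MDM4 exon 6: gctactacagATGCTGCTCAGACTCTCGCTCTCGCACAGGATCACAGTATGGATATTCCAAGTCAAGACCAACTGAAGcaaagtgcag

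With siE6, MDM4-203 took 27.4%, 36.8% and 36.5% of MDM4 reads, against 22.6%, 21.3% and 18.2% with control siRNA, and MDM4-205 took 64.0%, 58.1% and 58.5%, against 71.3%, 69.8% and 74.7%. With CHX, MDM4-203 took 56.1%, 68.3% and 56.4%, against 41.3%, 43.9% and 52.0% with DMSO. In both cases every treated library had the higher share of the exon 6 form. With siE8 it took 17.2%, 20.3% and 19.0%, overlapping the siRNA controls, and with MAF1 OE 25.9%, 16.8% and 17.1%, against 17%, 17% and 30.7% with eGFP OE, which also overlap. Salmon divides reads between transcripts by estimation, so these shares were described and not tested.

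**Figure D5:**
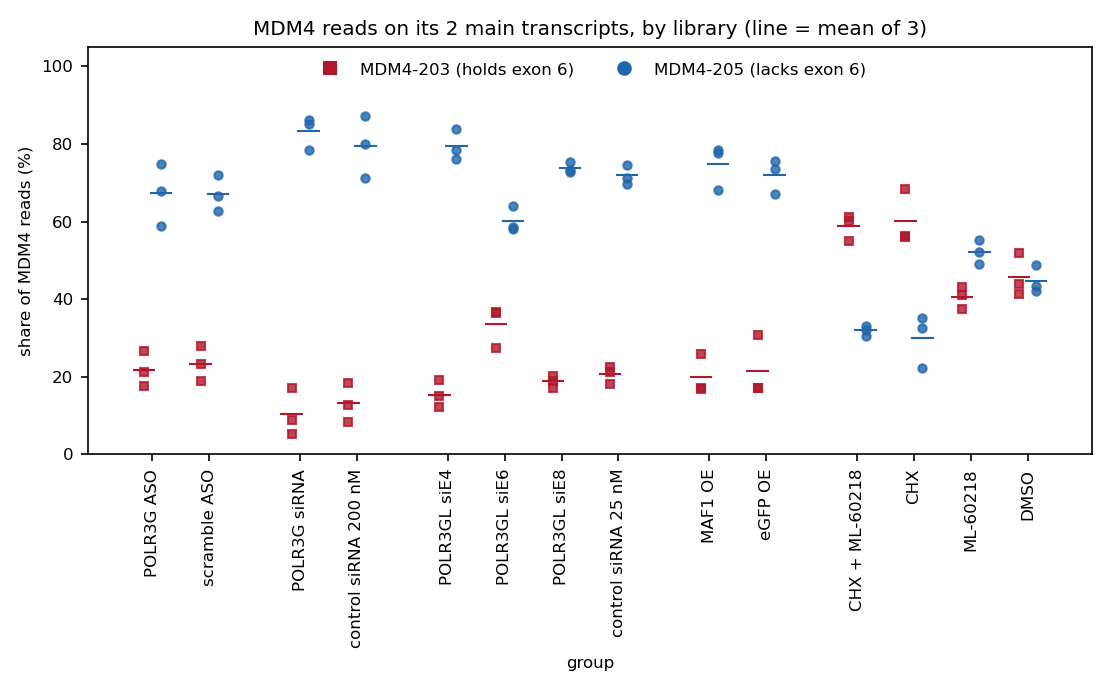
Share of MDM4 reads (y axis, percent) assigned to MDM4-203, which holds exon 6 (squares), and MDM4-205, which lacks it (circles), in every library by group, with the mean of 3 as a line. MDM4-205 has the larger share in all HEK293T groups, and the 2 forms come closer with siE6. With DMSO the mean shares are 45.7% (MDM4-203) and 44.8% (MDM4-205). MDM4-203 has the larger share in every library with CHX and with CHX + ML-60218.

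The DDB2 reads also divided differently. DDB2-203, annotated as a target of nonsense-mediated decay, took 17.8%, 17.3% and 21.8% of DDB2 reads with CHX, against 7.0%, 4.5% and 8.7% with DMSO. The protein-coding DDB2-201 also took a larger share there, with 59.7%, 51.2% and 55.8% with CHX, against 37.8%, 43.3% and 33.4% with DMSO. DDB2-210, annotated with a retained intron, took 34.2%, 34.1% and 36.0% with the POLR3G ASO, against 16.0%, 18.9% and 15.2% with scramble ASO. DDB2-201 took 14.3%, 13.5% and 18.4% with the ASO, against 32.1%, 28.2% and 31.2% with scramble ASO. PIDD1-210, also annotated with a retained intron, took 11.2%, 11.0% and 13.4% of PIDD1 reads with CHX, against 27.8%, 21.6% and 28.3% with DMSO. MDM2 reads by contrast lay on MDM2-202 at a mean of 93.9% to 98% in every group.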

How the data were processed

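The submitters' processing notes name bcl2fastq 2.20, Trim Galore, Salmon, DESeq2 and hg38; the transcript annotation was not stated. Libraries came from a stranded mRNA kit, per the labels' protocols. The deposited table holds, per its column names, an estimated count (Salmon NumReads) and a TPM value for each transcript in each library, as the authors made them. Transcripts were matched to GENCODE release 29 (158359 of 194142, 81.6%). Those without a match held 8.06% to 9.54% of reads and were left out. For each gene, the estimated counts of its transcripts were added and the sum rounded. Precision follows library size, which the text gives.

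Each experiment was fitted in edgeR 4.0.16 (R 4.3.3, filterByExpr, TMM, quasi-likelihood test, Benjamini-Hochberg adjustment over all genes, calls at adjusted p under 0.05). The pipeline was run on simulated counts in which far fewer genes changed than with the oligonucleotides here. It recovered 30% to 62% of the simulated 1.25-fold changes, depending on the comparison, so small changes can be missed. The 29 measured targets passed the filter on low counts in every comparison. Shared replicate numbers correlated above 0.1 in all pairs for CHX against DMSO alone (r 0.141 to 0.317). Members and lists were chosen with earlier results of these data known. A gene of the regulator list is not reported here. Values are given for MDM2, the targeted gene and up to 6 called targets per direction (3 for differences) without overlap and with a mean of at least 1 CPM; further targets named in the text were chosen after their values were seen. Alternatives tried: a transcript length offset, a replicate block, fits over other sets of libraries, fits without the filter, leaving out each library, DESeq2 1.42.0 as the test, and its size factors in edgeR. Tables, sequence searches and figures were made in Python 3.11.15 (pandas 2.3.3, numpy 2.4.6, matplotlib 3.10.9).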

Additional observations from a re-analysis of the deposited data

Results flagged for a closer look

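The targets below differed between 2 agents or conditions by a test of the difference itself. For the POLR3G ASO against the POLR3G siRNA, each relative to its own control, the log2 differences were 2.15 for RRM2B, 1.43 for SPATA18, 1.09 for PIDD1, 0.19 for MDM2, -1.46 for TP53INP1, -1.34 for TP53I11 and -1.11 for TIGAR (adjusted p from 9.88e-12 to 1.86e-05, edgeR). With the transcript length allowed for, SPATA18 stood at 0.83 and TIGAR at -0.69. The groups behind each of these effects are set out above. RRM2B overlapped its controls with the ASO and was low in all 3 siRNA libraries. For ML-60218 with CHX against ML-60218 without CHX, the log2 differences were 0.24 for MDM2, -0.72 for TP53I11 and -0.67 for PHLDA3 (adjusted p = 0.0113, 0.00158 and 0.0219, edgeR). With the transcript length allowed for, MDM2 stood at 0.16 and was not called, and PHLDA3 at -1.10.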

How the results depend on the processing

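Over the alternatives, 330 counts of changed targets stayed within 1.5 times the reported count and 14 did not. With ML-60218 in the presence of CHX, 2 targets fell, but 1 did with DESeq2, with no filter, with the length offset and with the 2 groups compared alone, and 1 to 2 with each library left out. For the difference between ML-60218 with and without CHX, the 1 target that was higher became 0 with the length offset (MDM2, log2 difference 0.16, adjusted p = 0.178, edgeR), and the 2 that were lower became 1 to 3 with each library left out. Among MDM2 and the largest changes per comparison, as the naming rule picks them, 1459 values kept their direction and their side of the threshold, 27 lost significance and 0 turned their sign; other targets named in the text are not in these counts. The length offset moved most: of the 216 calls over all targets and comparisons 29 were lost and 5 turned their sign, and of the 161 values not called 7 became calls. POLH with the ASO turned from 0.23 to -0.02 on the log2 scale. The largest move was 0.606. DESeq2 size factors moved no value by more than 0.0199. The replicate block moved no value by more than 0.108, with 1 of the 216 calls lost and 5 gained; CHX against DMSO alone had numbers that pair. The causes were not tested. Low read numbers limit FAS in THP-1.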
